A study of Mus musculus with 12 samples.

Results

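The interferon-stimulated antiviral effector genes are genes that a cell switches on when it senses an interferon. Many of their products block a step in the life of a virus, and some restrain the response itself. The 50 genes described here were chosen by symbol as effectors, leaving out the guanylate-binding proteins and immunity-related GTPases, the Ifi200 family and the IRF and STAT transcription factors. All 50 were found among the 54532 genes counted in mouse BMDMs (bone marrow-derived macrophages, cultured from marrow precursors), and all 50 were among the 15338 genes that passed a filter on low counts. RNA was sequenced in 12 libraries, 3 in each of 4 groups: R150X BMDMs with oxidised low-density lipoprotein (OxLDL), WT BMDMs with OxLDL, untreated R150X BMDMs and untreated WT BMDMs. R150X is an allele of Gpnmb, which encodes a transmembrane glycoprotein abundant in macrophages that load lipid, and WT cells came from control mice. The labels gave both genotypes the same strain, a cross of DBA/2 with C57BL/6 backcrossed to C57BL/6. OxLDL is modified lipoprotein that macrophages take up, filling with lipid droplets to become foam cells, and the study asked about the role of GPNMB in their formation. The labels named no dose or duration of OxLDL, no batch, no sex, and no separate mouse or culture behind the replicates of a group, so every p-value measures the spread between these libraries, which may be technical.

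Interferons are secreted proteins that bind receptors on the same or neighbouring cells. The receptors activate JAK kinases, which phosphorylate STAT proteins, and these join IRF9 in a complex that binds a DNA element called the interferon-stimulated response element (ISRE) near the start of its target genes. Macrophages keep a low level of this signalling without infection, and many effectors can be detected in resting cultures. Whether such signalling set the untreated levels here was not tested. The products act at successive steps: sensors detect foreign RNA, IFIT and OAS proteins act on viral RNA, ISG15 is attached to proteins by ubiquitin-like enzymes, and restriction factors act on entry, replication or release of virions.

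Promoter sequence was available for 39 of the 50 genes, in windows of 300 bases that ran from 250 before to 50 after a gene's start (RefSeq, build GRCm38.p6). The letters searched for were the ISRE core GAAANNGAAA, which on the other strand reads TTTCNNTTTC, with overlapping matches counted. A core was found in 18 of the 39 genes (46.2%), against 1079 of 27025 genes with a window (3.99%). A match is a description of the letters and does not show that a factor binds there. The following windows are shown because the results turn on these genes, in capitals where a core lies and otherwise in lower case, each read 5′ to 3′ on the gene's own strand.
Ifit1 (chr19:34640639-34640938, plus strand): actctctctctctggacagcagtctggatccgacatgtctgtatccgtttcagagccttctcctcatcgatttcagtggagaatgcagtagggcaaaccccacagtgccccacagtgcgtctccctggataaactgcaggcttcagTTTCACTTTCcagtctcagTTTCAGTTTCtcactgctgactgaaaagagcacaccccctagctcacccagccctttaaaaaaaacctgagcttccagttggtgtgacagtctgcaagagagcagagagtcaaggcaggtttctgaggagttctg
Isg15 (chr4:156200769-156201068, minus strand): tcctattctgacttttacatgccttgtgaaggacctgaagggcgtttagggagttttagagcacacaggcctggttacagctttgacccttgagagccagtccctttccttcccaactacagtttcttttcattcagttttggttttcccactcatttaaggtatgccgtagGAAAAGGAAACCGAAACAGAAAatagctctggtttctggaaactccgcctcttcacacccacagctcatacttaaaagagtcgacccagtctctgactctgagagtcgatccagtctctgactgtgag
Rsad2 (chr12:26456403-26456702, minus strand): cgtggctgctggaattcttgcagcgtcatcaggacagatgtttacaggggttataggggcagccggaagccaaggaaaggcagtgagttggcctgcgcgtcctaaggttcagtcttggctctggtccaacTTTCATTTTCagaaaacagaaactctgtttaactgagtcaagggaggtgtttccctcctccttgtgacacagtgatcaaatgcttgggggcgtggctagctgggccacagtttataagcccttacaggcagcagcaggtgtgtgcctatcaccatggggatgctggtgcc
Cmpk2 (chr12:26468965-26469264, plus strand): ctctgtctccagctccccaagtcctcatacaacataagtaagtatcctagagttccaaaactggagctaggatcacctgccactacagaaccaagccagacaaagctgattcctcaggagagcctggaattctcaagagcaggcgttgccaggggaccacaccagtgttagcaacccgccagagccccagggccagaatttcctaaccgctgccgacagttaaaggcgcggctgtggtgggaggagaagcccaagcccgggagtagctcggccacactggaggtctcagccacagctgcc
Trim25 (chr11:88999153-88999452, plus strand): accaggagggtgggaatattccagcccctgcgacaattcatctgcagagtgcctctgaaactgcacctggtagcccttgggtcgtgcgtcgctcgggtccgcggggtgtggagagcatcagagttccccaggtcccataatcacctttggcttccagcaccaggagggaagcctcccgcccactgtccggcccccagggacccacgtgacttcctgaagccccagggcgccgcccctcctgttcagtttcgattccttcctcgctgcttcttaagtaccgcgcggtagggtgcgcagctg

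With the gene's first base counted as 1 and the base before it as -1, the Ifit1 cores began at -104 and -85. Isg15 carried 3 overlapping cores that began at -78, -72 and -66, and Rsad2 carried 1 that began at -120. Neither Cmpk2 nor Trim25 held the core in its window, which says only that these letters are not there. Ifit3 and Ifit3b, neighbouring genes with near-identical stretches, carried the same pair of cores in the same 30 bases, as the windows below show.
Ifit3 at -156 (chr19:34583363-34583392, plus strand): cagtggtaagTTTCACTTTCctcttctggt
Ifit3 at -122 (chr19:34583397-34583426, plus strand): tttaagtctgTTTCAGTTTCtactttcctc
Ifit3b at -188 (chr19:34607759-34607788, plus strand): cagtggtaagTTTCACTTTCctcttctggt
Ifit3b at -154 (chr19:34607793-34607822, plus strand): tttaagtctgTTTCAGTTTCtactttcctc
Oas3 at -75 (chr5:120777715-120777744, minus strand): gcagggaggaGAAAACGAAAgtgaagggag
Oas1a at -14 (chr5:120907520-120907549, minus strand): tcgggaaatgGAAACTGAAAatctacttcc
Ifitm3 at 20 (chr7:141010706-141010735, minus strand): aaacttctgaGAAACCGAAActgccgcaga

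Libraries held 14838969 to 18222868 counts, and levels are given as CPM, which are counts relative to the library's total after TMM (trimmed mean of M-values) scaling. The level that 3 counts stand for was 0.158 to 0.209 CPM. The mutated gene Gpnmb matched the labels: it stood at 691 to 724 CPM in OxLDL-treated R150X libraries and 12355 to 12615 CPM in OxLDL-treated WT libraries, and at 363 to 411 CPM in untreated R150X libraries and 5306 to 5374 CPM in untreated WT libraries. Xist, which coats the inactive X chromosome of females, stood at 228 to 349 CPM in the R150X libraries and at 0 to 2.75 CPM in the WT libraries, so the allele and this difference cannot be told apart in any comparison of genotypes. Replicate 1 of untreated R150X differed from replicates 2 and 3 with a chi-square per degree of freedom of 9.23 and 10.1, against 2.31 to 4.76 in the other pairs of replicates. Without it 49 of the 50 genes still fell with OxLDL in R150X cells, and the comparison of untreated genotypes is given with and without it.

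Almost all of the 50 genes were lower with OxLDL than without it in both genotypes. The labels do not say whether treated and untreated libraries were prepared together. In R150X cells 49 of 50 fell and in WT cells 48 of 50 fell, at an adjusted p under 0.05 in the quasi-likelihood test of edgeR (Benjamini-Hochberg adjustment over all genes tested). Of all genes tested, 39.0% changed with OxLDL in R150X cells and 20.6% fell, and in WT cells 45.8% changed and 23.1% fell. The median log2 fold change of the 50 genes was -1.91 in R150X cells and -1.86 in WT cells, against medians of 0.00 and 0.01 over all genes tested. None of the 50 rose in either genotype: edgeR gave 0 rising genes at an adjusted p under 0.05, 0 at an unadjusted p under 0.05, and DESeq2 also gave 0. Together the 50 genes summed to 2140 ± 23.0 CPM with OxLDL and 6052 ± 79.6 CPM without it in R150X cells (SD, n = 3), so that 35.4% was left. In WT cells the sums were 2049 ± 7.06 CPM with OxLDL and 5756 ± 51.3 CPM without it (SD, n = 3), and 35.6% was left. In bulk samples, fewer cells that express a gene and less of its RNA in each cell cannot be told apart.

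**Figure D1:**
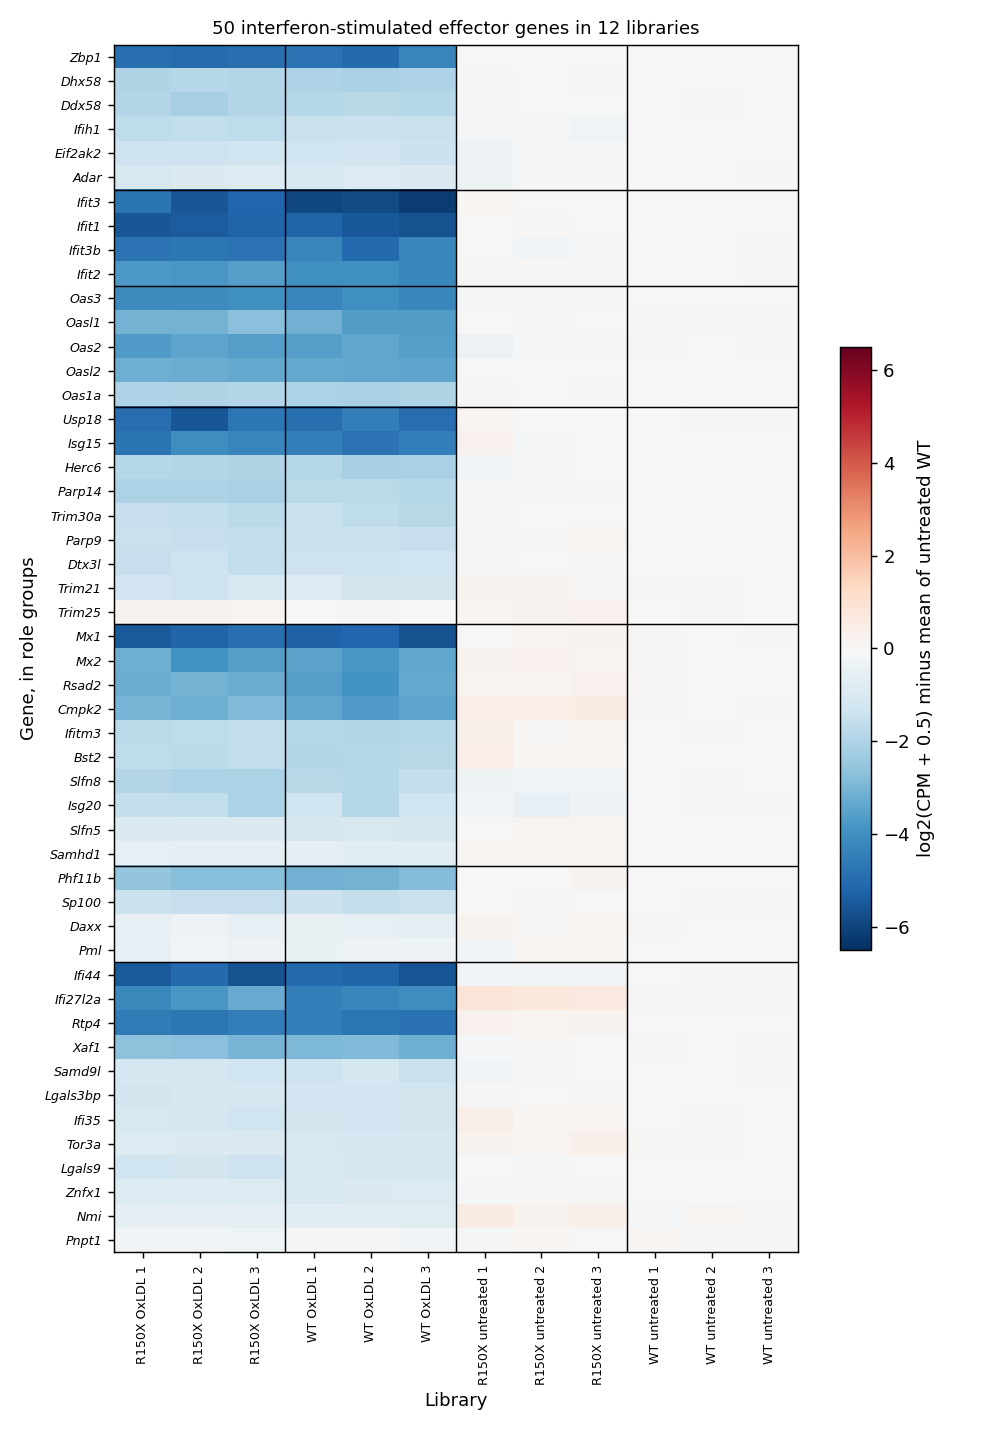
Level of each of the 50 genes (rows, in role groups) in each of the 12 libraries (columns), as log2(CPM + 0.5) minus the mean of the 3 untreated WT libraries. Blue marks lower values: the 6 OxLDL-treated libraries are blue for nearly every gene, Trim25 and Pnpt1 being the 2 rows that stay close to untreated WT.

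The IFIT proteins, which bind the 5′ ends of viral RNA and stop its translation, were the group that fell furthest: all 4 fell in both genotypes, with a median log2 fold change of -5.58 in R150X cells and -5.72 in WT cells. Ifit1, which recognises RNA lacking the cap methylation of host mRNA, stood at 1.57, 1.83 and 2.19 CPM in OxLDL-treated R150X libraries, against 99.1, 103 and 94.4 CPM in untreated R150X libraries. In WT libraries Ifit1 stood at 2.19, 1.63 and 1.46 CPM with OxLDL, against 95.9, 98.1 and 98.2 CPM without it. Treated and untreated libraries were far apart in both genotypes, and 1.89% of the untreated level was left in R150X cells and 1.81% in WT cells. The log2 fold changes were -5.72 in R150X cells (SE 0.0977, adjusted p = 5.05e-21 by edgeR) and -5.77 in WT cells (SE 0.101, adjusted p = 1.01e-20 by edgeR). Ifit2, a partner of the other IFIT proteins, stood at 5.77, 5.66 and 6.45 CPM in OxLDL-treated R150X libraries, against 87.4, 88.3 and 88.0 CPM in untreated ones. In WT libraries it stood at 4.82, 4.90 and 3.96 CPM with OxLDL, against 82.3, 81.5 and 88.1 CPM without it. It fell least of the 4, with log2 fold changes of -3.88 in R150X cells and -4.20 in WT cells.

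Ifit3, another gene of the IFIT family, stood at 3.14, 1.60 and 2.31 CPM in OxLDL-treated R150X libraries, against 108, 97.1 and 99.3 CPM in untreated ones. In WT libraries it stood at 1.13, 1.29 and 0.904 CPM with OxLDL, against 100.1, 96.4 and 100.1 CPM without it. All 3 treated R150X libraries lay above all 3 treated WT libraries, while the untreated libraries of both genotypes overlapped. Its log2 fold change was -5.44 in R150X cells and -6.47 in WT cells. Ifit3b, its near copy, was at the limit of detection with OxLDL, with 3, 4 and 3 counts in R150X libraries and 8, 1 and 7 counts in WT libraries. Summed over libraries, 10 counts with OxLDL stood against 885 without it in R150X cells, a ratio of untreated to treated level of 86.6 (exact 95% counting interval 46.9 to 181), and 16 stood against 1032 in WT cells, a ratio of 51.7 (31.7 to 90.9). Of the 50-base stretches of Ifit3 transcripts, 51.2% also occur in Ifit3b, so how reads were divided between these genes is uncertain.

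**Figure D2:**
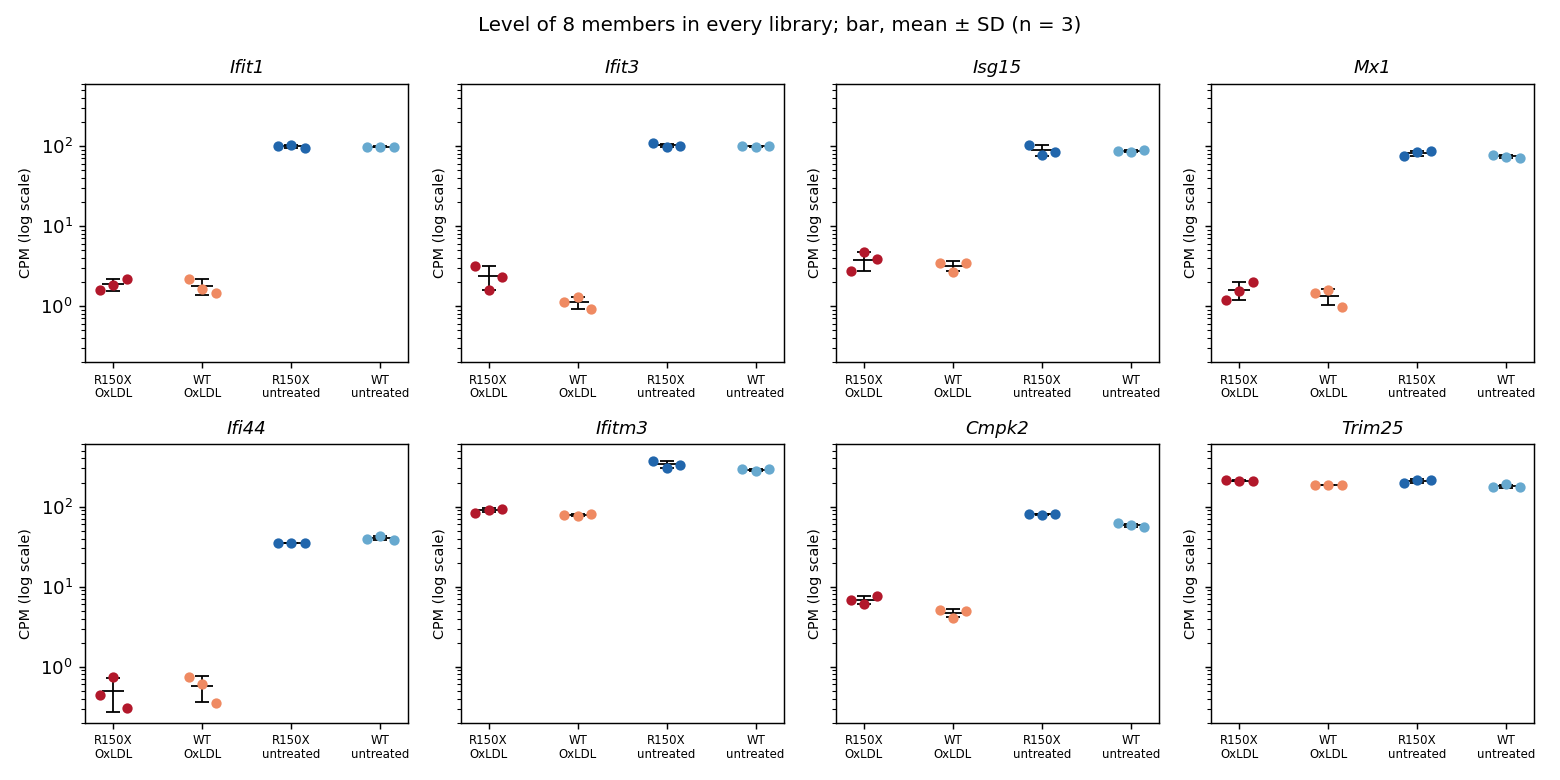
CPM of 8 of the genes in every library on a shared log axis, with points for libraries and bars for the mean ± SD (n = 3), in OxLDL-treated R150X, OxLDL-treated WT, untreated R150X and untreated WT cells. Ifit1, Ifit3, Isg15, Mx1 and Ifi44 sit more than 16-fold lower with OxLDL in both genotypes, Ifitm3 keeps 26.8% and 27.1% of its untreated level in R150X and WT cells, and Trim25 shows no such step.

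The OAS proteins sense double-stranded RNA, and the enzymatic ones make a short adenylate that activates an RNA-degrading nuclease. All 5 fell in both genotypes, with a median log2 fold change of -3.27 in R150X cells and -3.61 in WT cells. Oas3, the longest of the family, stood at 5.21, 5.32 and 5.90 CPM in OxLDL-treated R150X libraries, against 94.5, 105 and 106 CPM in untreated ones. In WT libraries Oas3 stood at 4.70, 5.72 and 4.87 CPM with OxLDL, against 101, 98.1 and 98.9 CPM without it. Its fall was the deepest of the 5, to 5.39% of the untreated level in R150X cells and 5.12% in WT cells. Oasl2, an OAS-like protein, stood at 16.5, 16.2 and 15.2 CPM in OxLDL-treated R150X libraries and at 152, 155 and 156 CPM in untreated ones. In WT libraries Oasl2 stood at 15.2, 14.3 and 14.3 CPM with OxLDL and at 160.0, 152 and 155 CPM without it. The shallowest fall was that of Oas1a, with log2 fold changes of -2.02 in R150X cells and -2.08 in WT cells, and 57.6% of its 50-base stretches also occur in Oas1g. Oas2 and Oasl1 lay between, at -3.50 and -3.26 in R150X cells and at -3.61 and -3.85 in WT cells.

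The RNA sensors and double-stranded RNA-binding enzymes also fell, 6 of 6 in both genotypes, with a median log2 fold change of -1.70 in R150X cells and -1.65 in WT cells. One gene stood apart within the group: Zbp1, a sensor of left-handed nucleic acid that triggers necroptosis, fell to 2.81% of its untreated level in R150X cells and to 3.40% in WT cells. Zbp1 averaged 2.65 ± 0.118 CPM with OxLDL and 94.5 ± 1.83 CPM without it in R150X cells, and 3.24 ± 1.08 CPM with OxLDL and 95.1 ± 1.56 CPM without it in WT cells (SD, n = 3 each). The cytosolic RNA helicases Ddx58, which encodes RIG-I, Ifih1, which encodes MDA5, and Dhx58, which encodes LGP2, kept 26.3%, 35.8% and 25.3% of their untreated levels in R150X cells and 27.7%, 36.9% and 23.6% in WT cells. Eif2ak2, the kinase PKR that stops translation on sensing double-stranded RNA, kept 44.9% in R150X cells and 40.1% in WT cells. Adar, which edits adenosine in double-stranded RNA so that host RNA is not sensed, fell least, keeping 58.0% in R150X cells and 51.5% in WT cells. Adar overlaps Chrnb2 on the opposite strand by 7252 bases, and 14.4% of its 50-base stretches also occur in Chrnb2 transcripts. Without a known strand setting, reads from those shared stretches cannot be told apart.

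Isg15 and the enzymes of ubiquitin-like and ADP-ribose conjugation ranged widely, with 8 of 9 genes lower in each genotype and a median log2 fold change of -1.62 in R150X cells and -1.63 in WT cells. Isg15, the ubiquitin-like modifier, stood at 2.70, 4.75 and 3.83 CPM in OxLDL-treated R150X libraries, against 104, 77.2 and 82.9 CPM in untreated ones. In WT libraries it stood at 3.45, 2.65 and 3.48 CPM with OxLDL, against 85.3, 83.7 and 88.5 CPM without it. The libraries of each treatment did not overlap those of the other, and 4.27% of the untreated level was left in R150X cells and 3.72% in WT cells. Usp18, the protease that removes ISG15 and blocks the interferon receptor, had log2 fold changes of -5.63 in R150X cells and -5.20 in WT cells. Log2 fold changes were -1.92 in R150X cells and -2.09 in WT cells for the ISG15 ligase Herc6, -1.42 and -1.09 for the ubiquitin ligase Trim21 and -1.58 and -1.63 for its relative Trim30a. The partners Dtx3l and Parp9 changed by -1.48 and -1.62 in R150X cells and by -1.32 and -1.45 in WT cells, and their genes overlap by 682 bases.

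Trim25, the ubiquitin ligase that activates RIG-I, was the exception of this group. It stood at 214, 211 and 206 CPM in OxLDL-treated R150X libraries, against 195, 213 and 217 CPM in untreated ones. In WT libraries Trim25 stood at 186, 189 and 185 CPM with OxLDL, against 175, 190.2 and 176 CPM without it. Treated and untreated libraries overlapped in both genotypes. Its log2 fold change was 0.01 in R150X cells (95% interval -0.09 to 0.12, adjusted p = 0.858 by edgeR) and 0.05 in WT cells (95% interval -0.06 to 0.16, adjusted p = 0.457 by edgeR), so any change lies within these intervals.

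The effectors on entry, assembly and nucleotide pools fell in 10 of 10 cases in both genotypes, with medians of -1.90 in R150X cells and -1.88 in WT cells. Mx1 and Mx2, genes of a family of dynamin-like GTPases that trap viral nucleocapsids, fell furthest. The annotation lists Mx2 as a polymorphic pseudogene, and whether either RNA gave a working protein in these cells was not tested. Mx1 stood at 1.19, 1.54 and 2.01 CPM in OxLDL-treated R150X libraries, against 74.0, 84.0 and 85.7 CPM in untreated ones. In WT libraries it stood at 1.44, 1.57 and 0.973 CPM with OxLDL, against 78.0, 72.9 and 71.4 CPM without it. The share left was 1.95% in R150X cells and 1.79% in WT cells, and for Mx2 the log2 fold changes were -4.41 and -4.18. Rsad2, which encodes viperin, makes a chain-terminating nucleotide from CTP that its neighbour Cmpk2 helps to supply. The pair fell to similar extents, with log2 fold changes of -3.45 for Rsad2 and -3.54 for Cmpk2 in R150X cells and of -3.68 and -3.63 in WT cells. Ifitm3, a membrane protein that blocks fusion of virions with endosomes, stood at 84.3, 91.3 and 94.8 CPM in OxLDL-treated R150X libraries, against 375, 306 and 329 CPM in untreated ones. In WT libraries Ifitm3 stood at 78.7, 76.7 and 79.8 CPM with OxLDL, against 297, 279 and 294 CPM without it. Bst2, the tether that holds budding virions at the cell surface, kept 26.8% of its untreated level in R150X cells, the same share as Ifitm3. The shallowest fall was that of Samhd1, which removes deoxynucleotides needed for reverse transcription, with log2 fold changes of -0.76 in R150X cells and -0.68 in WT cells.

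The group of nuclear body and DNA-binding proteins fell in 4 of 4 cases in both genotypes, with median log2 fold changes of -1.06 in R150X cells and -1.02 in WT cells. Pml, which builds the bodies, and its partner Daxx, a histone chaperone, were among the least lowered of all 50 genes, at -0.41 and -0.62 in R150X cells and -0.38 and -0.57 in WT cells. Sp100, another component, had log2 fold changes of -1.50 in R150X cells and -1.47 in WT cells. Those of Phf11b were -2.98 and -3.24, and 47.0% of its 50-base stretches also occur in other genes.

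Of the remaining 12 interferon-induced genes, all 12 fell in R150X cells and 11 fell in WT cells, with medians of -1.23 and -1.24. Ifi44, which limits replication of several viruses, was close to the limit of detection with OxLDL. It stood at 0.439, 0.744 and 0.304 CPM in OxLDL-treated R150X libraries, against 35.3, 34.7 and 35.0 CPM in untreated ones. In WT libraries it stood at 0.752, 0.613 and 0.348 CPM with OxLDL, against 40.0, 42.9 and 38.5 CPM without it. The ratio of untreated to treated level was 69.7 in R150X cells (exact 95% counting interval 47.1 to 108) and 70.1 in WT cells (47.7 to 108). Rtp4, a chaperone of receptors that also restrains RNA viruses, stood at 2.63, 2.35 and 2.74 CPM in OxLDL-treated R150X libraries, against 90.2, 83.1 and 86.9 CPM in untreated ones. In WT libraries Rtp4 stood at 2.76, 2.38 and 2.02 CPM with OxLDL, against 74.0, 72.9 and 72.0 CPM without it. Its log2 fold changes were -5.07 in R150X cells and -4.92 in WT cells, and 11.6% of its stretches also occur in Gm45338. Ifi27l2a, a small membrane protein, had log2 fold changes of -4.91 in R150X cells and -5.06 in WT cells, and Xaf1, which promotes apoptosis, of -2.90 and -3.08.

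At the other end lay Pnpt1, a mitochondrial RNA-degrading enzyme, with a log2 fold change of -0.24 in R150X cells (95% interval -0.41 to -0.07, adjusted p = 0.0211 by edgeR) and -0.11 in WT cells (95% interval -0.28 to 0.05, adjusted p = 0.262 by edgeR). The R150X call was lost when R150X replicate 3 with OxLDL (adjusted p = 0.0887), untreated R150X replicate 2 (0.103) or untreated R150X replicate 3 (0.063) was left out. The other genes of this group had log2 fold changes of -0.91 to -1.41 in R150X cells and of -0.76 to -1.30 in WT cells, among them Lgals3bp, a secreted glycoprotein, at -1.20 and -1.24.

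**Figure D3:**
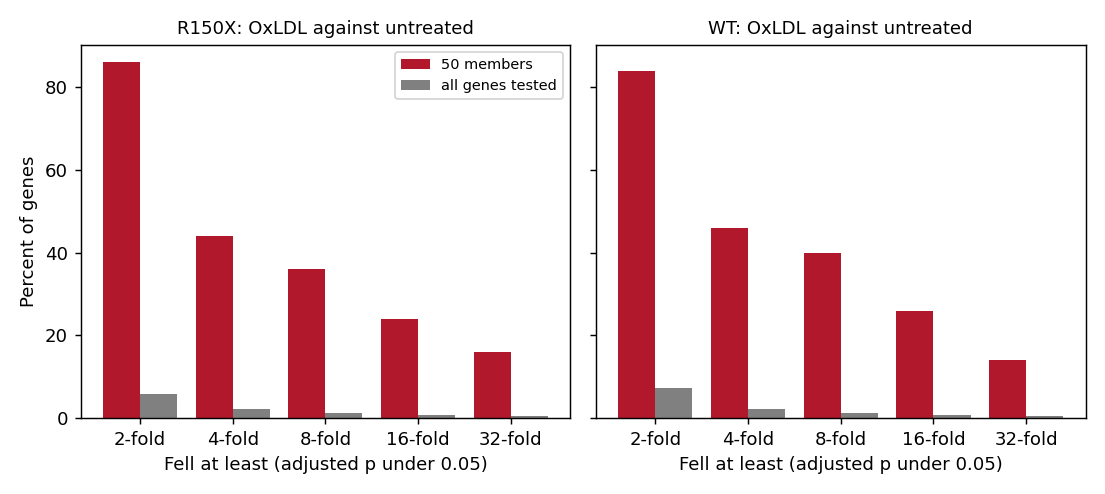
Share of the 50 genes (red) and of all 15338 genes tested (grey) that fell at least 2-, 4-, 8-, 16- or 32-fold with OxLDL at an adjusted p under 0.05, in R150X cells (left) and WT cells (right); both axes start at 0. In R150X cells 86% of the 50 genes and 5.95% of all genes fell at least 2-fold, and in WT cells 84% and 7.2%.

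The falls were deep as well as frequent. In R150X cells 43 of the 50 genes fell at least 2-fold, 22 at least 4-fold, 18 at least 8-fold and 8 at least 32-fold, and in WT cells these counts were 42, 23, 20 and 7. Over all genes tested, 1.29% fell at least 8-fold in R150X cells and 1.19% in WT cells. The 18 genes made up 9.09% of the 198 genes past 8-fold in R150X cells, and the 20 made up 10.9% of the 183 in WT cells. For 49 of the 50 genes in R150X cells and 48 of 50 in WT cells, all 3 treated libraries lay below all 3 untreated ones. The same count was not made over all genes tested, so it has no background share beside it. Genes with an ISRE core in their window had a median log2 fold change of -1.92 in R150X cells and -1.88 in WT cells (n = 18 genes), and those with a window and no core had -1.41 and -1.30 (n = 21 genes). These medians are a description, since both sets span falls beyond -6 on the log2 scale. A filter on low counts within the OxLDL-treated libraries alone would have kept 48 of the 50 genes, all but Ifit3b and Ifi44. These genes passed the filter through their untreated levels, which favours a deep fall, and they are included in the counts at every threshold above.

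The OxLDL response was alike in size between genotypes for most of the genes. Across the 50 genes the log2 fold changes of R150X and WT cells, which share no library, correlated with r = 0.99. Genes are not independent replicates, and this r describes the spread across genes. The difference between the responses, R150X minus WT, was within 0.5 on the log2 scale for 47 of the 50 genes, with a median of 0.02 against -0.02 over all genes tested. By the interaction term of the edgeR model, 1 of the 50 responses was higher in R150X cells, that of Ifit3, and 1 was lower, that of Parp14. Both genes fell in both genotypes, so higher means a shallower fall in R150X cells and lower a deeper one. Over all genes tested the interaction was called for 8.32%, higher for 3.13% and lower for 5.19%, so 2 of 50 is below the background share.

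**Figure D4:**
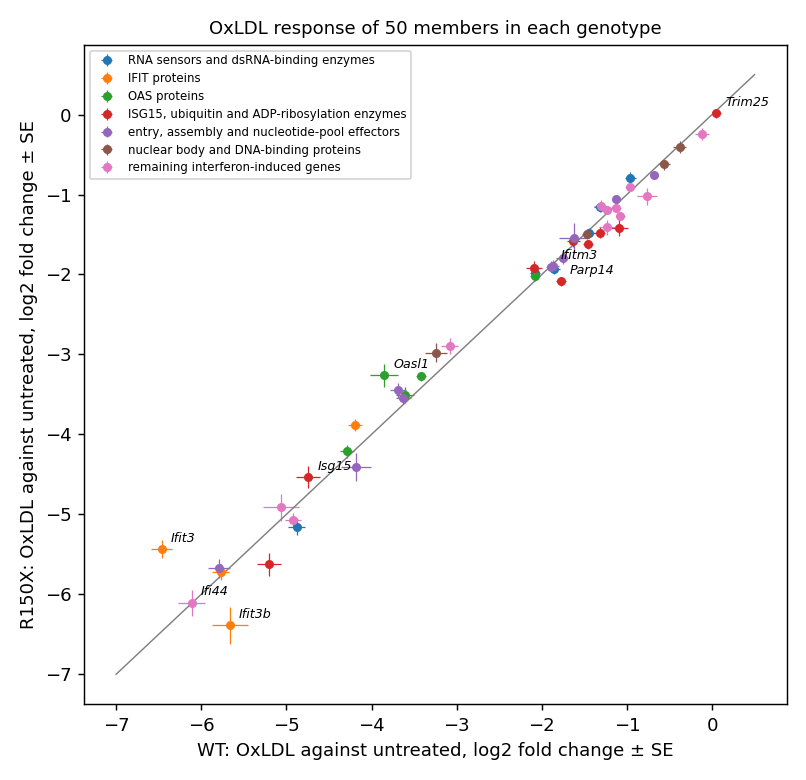
Log2 fold change of OxLDL against untreated for the 50 genes in WT cells (horizontal) and R150X cells (vertical), with SE as bars, colours for role groups and the line of equal response. The points follow the line from Trim25, near 0 on both axes, to Ifi44 near -6.1, and Ifit3 lies above it at -6.47 in WT cells and -5.44 in R150X cells.

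For Ifit3 the response in R150X cells minus that in WT cells was 1.03 on the log2 scale (SE 0.251, 95% interval 0.51 to 1.55, adjusted p = 0.0123 by edgeR). Behind it lay 50, 28 and 38 counts in OxLDL-treated R150X libraries and 18, 19 and 13 counts in OxLDL-treated WT libraries. Ifit3 and Ifit3b added together gave 3.32, 1.83 and 2.50 CPM in OxLDL-treated R150X libraries and 1.63, 1.36 and 1.39 CPM in OxLDL-treated WT libraries, which did not overlap either. The call was lost without OxLDL-treated R150X replicate 1 (a difference of 0.77, adjusted p = 0.0709 by edgeR) and without OxLDL-treated WT replicate 3 (0.91, adjusted p = 0.054 by edgeR). The other IFIT genes were not called: the differences were 0.05 for Ifit1, 0.32 for Ifit2 and -0.72 for Ifit3b, with 95% intervals of -0.37 to 0.47 for Ifit1, 0.05 to 0.58 for Ifit2 (adjusted p = 0.147 by edgeR) and -1.85 to 0.40 for Ifit3b.

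Parp14, an ADP-ribosyltransferase that acts in macrophage activation and antiviral defence, stood at 79.4, 78.6 and 77.8 CPM in OxLDL-treated R150X libraries and at 99.0, 99.6 and 92.7 CPM in OxLDL-treated WT libraries. Without OxLDL Parp14 stood at 300.0, 352 and 347 CPM in R150X libraries and at 328, 342 and 327 CPM in WT libraries. The treated libraries of the genotypes did not overlap, with every R150X library lower, while the untreated ones did. Parp14 fell further with OxLDL in R150X cells, with a log2 fold change of -2.085 against -1.774 in WT cells. The difference between these responses was -0.31 on the log2 scale (SE 0.081, 95% interval -0.48 to -0.14, adjusted p = 0.0193 by edgeR). That call was lost when libraries were scaled by their total alone (-0.22, adjusted p = 0.114 by edgeR) and without OxLDL-treated WT replicate 1 (-0.30, adjusted p = 0.0538) or 2 (-0.29, adjusted p = 0.0568), or untreated WT replicate 1 (-0.30, adjusted p = 0.0516) or 3 (-0.30, adjusted p = 0.0518).

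Set against the responses to OxLDL, differences between genotypes were small. In OxLDL-treated cells 7 of the 50 genes were higher in R150X than in WT and 4 were lower, against 13.0% of all genes called, 6.10% higher and 6.92% lower. In untreated cells 11 were higher and 4 lower, against 33.0% of all genes called, 18.1% higher and 14.8% lower. The median log2 difference was 0.09 with OxLDL and 0.03 without it, against 0.00 and 0.01 over all genes tested. Without OxLDL the count is close to the background share and depends on the scaling: with libraries scaled by their total alone, 5 genes were higher and 7 lower and the median turned to -0.04. The calls in the 2 states shared 4 higher genes, Trim25, Rsad2, Cmpk2 and Tor3a, which were 57.1% of the 7 and 36.4% of the 11, and 2 lower genes, Ifih1 and Slfn8. No gene was called in opposite directions.

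**Figure D5:**
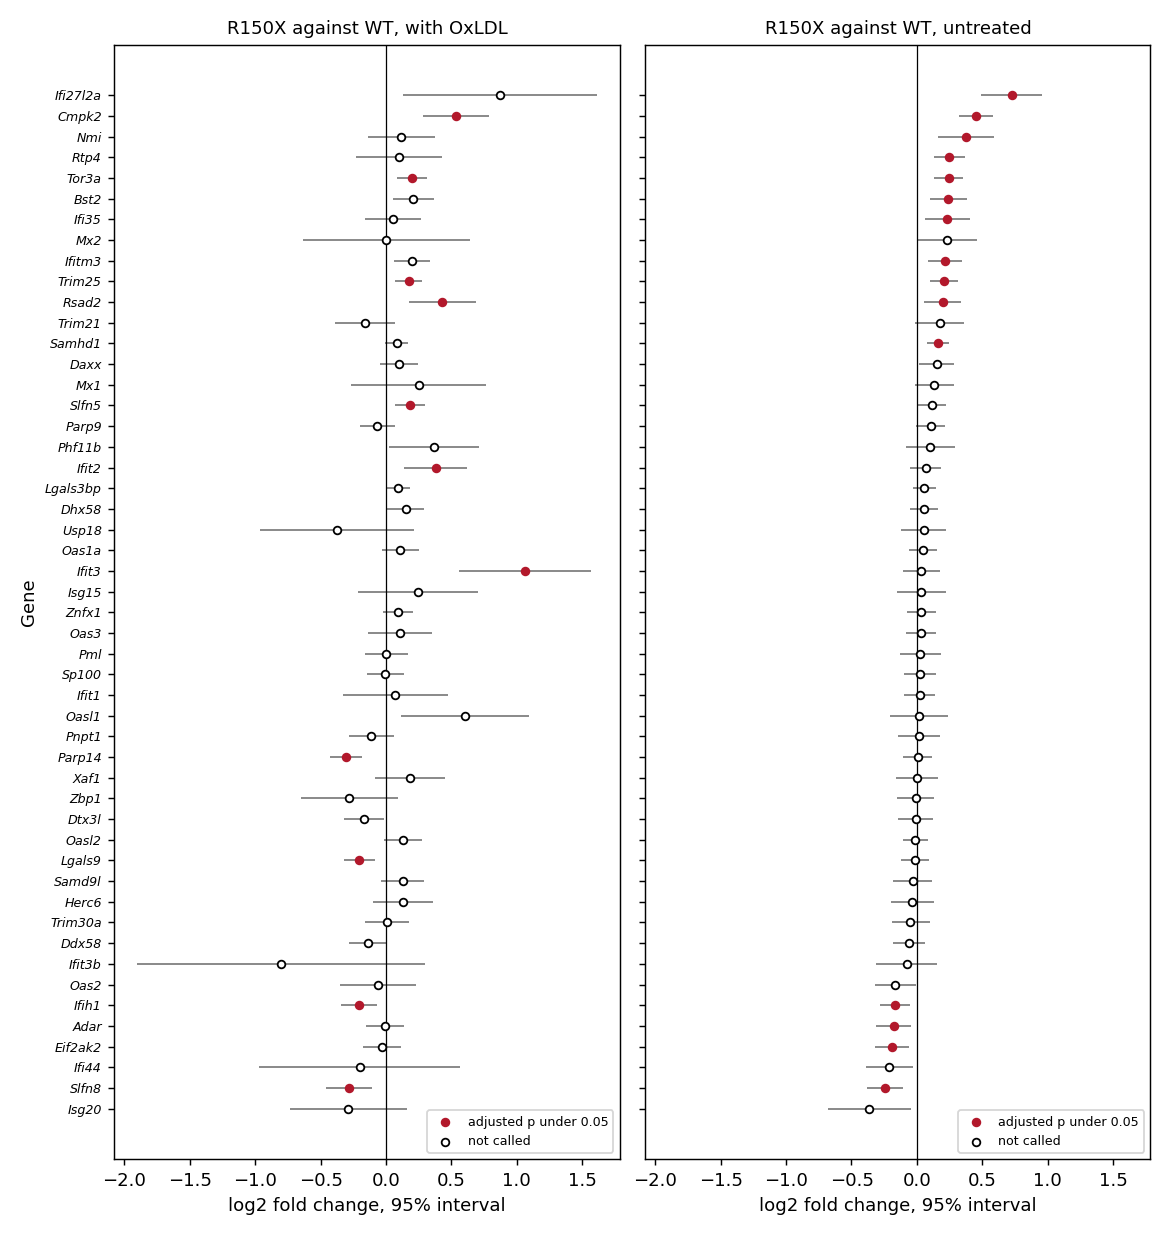
Log2 fold change of R150X against WT for the 50 genes, in OxLDL-treated cells (left) and untreated cells (right), with 95% intervals as bars and filled red points for genes at an adjusted p under 0.05, ordered by the untreated difference. Most points lie within 0.5 of the zero line, the called exceptions being Ifit3 at 1.06 and Cmpk2 at 0.54 with OxLDL and Ifi27l2a at 0.72 in untreated cells.

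With OxLDL, Cmpk2, the mitochondrial kinase that makes the substrate of viperin, stood at 6.84, 6.12 and 7.67 CPM in R150X libraries and at 5.08, 4.08 and 5.01 CPM in WT libraries. All 3 R150X libraries were higher, and the log2 fold change was 0.54 (SE 0.121, adjusted p = 0.00411 by edgeR). Rsad2, its divergent neighbour, stood at 8.66, 9.84 and 8.70 CPM in OxLDL-treated R150X libraries and at 6.70, 5.31 and 8.20 CPM in OxLDL-treated WT libraries, 0.43 higher on the log2 scale (SE 0.123, adjusted p = 0.0223 by edgeR). Ifit3 differed by 1.06 (SE 0.241, adjusted p = 0.00424 by edgeR) and Ifit2 by 0.38 (SE 0.115, adjusted p = 0.0312 by edgeR), from the libraries given above. Tor3a, an endoplasmic reticulum ATPase, stood at 79.5, 76.7 and 77.0 CPM in OxLDL-treated R150X libraries and at 70.8, 66.7 and 65.5 CPM in OxLDL-treated WT libraries. Its log2 fold change was 0.20 (SE 0.0563, adjusted p = 0.0209 by edgeR), close to the 0.17 of Trim25 (SE 0.0507, adjusted p = 0.0261 by edgeR) and the 0.18 of Slfn5 (SE 0.0554, adjusted p = 0.0324 by edgeR), a nuclear Schlafen protein.

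The lower genes with OxLDL were Parp14 at -0.31 (adjusted p = 0.00112 by edgeR), Lgals9 at -0.20 (adjusted p = 0.0174), Slfn8 at -0.28 (adjusted p = 0.0324) and Ifih1 at -0.21 (adjusted p = 0.0426). Lgals9, a secreted lectin that binds the inhibitory receptor TIM-3, stood at 59.4, 63.1 and 57.9 CPM in OxLDL-treated R150X libraries and at 72.0, 69.4 and 66.3 CPM in OxLDL-treated WT libraries. Slfn8, a Schlafen protein, stood at 19.0, 17.3 and 17.0 CPM in R150X libraries and at 20.7, 19.9 and 24.3 CPM in WT libraries with OxLDL. Ifih1 stood at 26.3, 27.8 and 26.4 CPM in R150X libraries and at 30.6, 31.3 and 31.0 CPM in WT libraries with OxLDL. In each of these genes every R150X library was lower than every WT library.

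Of these 11 calls with OxLDL, those of Ifit3, Parp14 and Cmpk2 held whichever library was left out and under every other setting tried. Each of the other 8 was lost without at least 1 library. Without OxLDL-treated R150X replicate 2 or WT replicate 3 the number of higher genes fell to 3, and without WT replicate 1 or 2 to 4. The number of lower genes fell to 1 without R150X replicate 3, and to 2 without R150X replicate 1 or any of the 3 WT replicates. Ifih1 was lost without any 1 of the 6 treated libraries (adjusted p up to 0.127 by edgeR), Trim25 without any but R150X replicate 3 (up to 0.0869) and Slfn5 without any but WT replicate 2 (up to 0.125). Tor3a was lost without R150X replicate 1 or 2 or WT replicate 2 or 3 (adjusted p up to 0.0861 by edgeR), and Lgals9 without R150X replicate 1 or 3 or WT replicate 1 or 2 (up to 0.0928). Ifit2 was lost without replicate 1 or 3 of either genotype (adjusted p up to 0.181 by edgeR), Rsad2 without R150X replicate 2 or WT replicate 1 or 2 (up to 0.159), and Slfn8 without R150X replicate 2 or 3 or WT replicate 3 (up to 0.169). Without untreated R150X replicate 1, which is in neither of these groups but shares their fit, 9 genes were higher and 4 lower.

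Without OxLDL, the largest difference was that of Ifi27l2a, which stood at 36.9, 32.6 and 31.1 CPM in R150X libraries and at 21.2, 18.2 and 21.4 CPM in WT libraries. The groups did not overlap, and the log2 fold change was 0.72 (SE 0.111, adjusted p = 4.06e-05 by edgeR). With OxLDL it was at 0.627, 1.03 and 1.64 CPM in R150X libraries and at 0.439, 0.613 and 0.765 CPM in WT libraries, which overlapped. The log2 fold change with OxLDL was 0.87 (95% interval 0.13 to 1.61) and was not called (adjusted p = 0.123 by edgeR), on 55 counts in all in the 3 R150X libraries and 27 in the 3 WT libraries. Cmpk2 stood at 80.3, 78.7 and 80.8 CPM in untreated R150X libraries and at 61.7, 58.2 and 55.4 CPM in untreated WT libraries, with a log2 difference of 0.45 (SE 0.0636, adjusted p = 1.43e-05 by edgeR). Rsad2 stood at 97.0, 96.2 and 105 CPM in untreated R150X libraries and at 91.2, 84.5 and 84.1 CPM in untreated WT libraries, a smaller log2 fold change of 0.20 (adjusted p = 0.032 by edgeR). Tor3a stood at 171, 168 and 184 CPM in untreated R150X libraries and at 155, 142 and 146 CPM in untreated WT libraries. Its log2 fold change was 0.24 (adjusted p = 0.00121 by edgeR), next to 0.25 for Rtp4 (adjusted p = 0.00206), 0.21 for Trim25 (adjusted p = 0.00322) and 0.16 for Samhd1 (adjusted p = 0.00527). Samhd1 stood at 510.0, 524 and 525 CPM in untreated R150X libraries and at 467, 454 and 473 CPM in untreated WT libraries.

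The other higher genes without OxLDL were Nmi, Bst2, Ifitm3 and Ifi35, with log2 fold changes of 0.38, 0.24, 0.22 and 0.23. In the libraries of Bst2, untreated R150X replicate 1 stood apart at 319 CPM, against 254 and 256 CPM in the other 2 R150X libraries and 235, 228 and 238 CPM in WT libraries. The lower genes were Slfn8 at -0.24, Eif2ak2 at -0.19, Adar at -0.18 and Ifih1 at -0.17. Eif2ak2 stood at 65.5, 78.8 and 75.7 CPM in untreated R150X libraries and at 84.1, 83.7 and 83.8 CPM in untreated WT libraries. Adar stood at 85.4, 101 and 103 CPM in untreated R150X libraries and at 106, 107 and 114 CPM in untreated WT libraries. In both genes untreated R150X replicate 1 had the lowest value. Slfn8 stood at 57.6, 61.7 and 65.1 CPM in untreated R150X libraries and at 72.1, 76.1 and 70.3 CPM in untreated WT libraries, with no overlap.

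Without untreated R150X replicate 1, 9 genes were higher and 3 lower, and the calls of Bst2 (adjusted p = 0.0641 by edgeR), Ifitm3 (0.0677), Ifi35 (0.236), Nmi (0.055), Eif2ak2 (0.072) and Adar (0.136) were lost. Of the 15 calls without OxLDL, those of Cmpk2, Ifi27l2a, Tor3a, Rtp4 and Slfn8 held whichever library was left out and under every other setting. Those of Trim25 (adjusted p = 0.0542 by edgeR) and Samhd1 (0.123) held for every library left out and were lost when libraries were scaled by their total alone. The number of lower genes fell to 1 without untreated WT replicate 1 or 2 and to 2 without untreated WT replicate 3. Rsad2 was lost without untreated R150X replicate 3 (adjusted p = 0.131 by edgeR) or WT replicates 2 (0.114) or 3 (0.112), and Ifih1 without R150X replicate 3 (0.156) or WT replicates 1 (0.0847) or 2 (0.0974). Ifitm3 was also lost without untreated WT replicate 2 (adjusted p = 0.061 by edgeR), and Eif2ak2, Adar and Ifi35 were also lost without any 1 of the 3 untreated WT replicates (adjusted p up to 0.0585 for Eif2ak2, 0.155 for Adar and 0.136 for Ifi35).

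Per kilobase of exon, Ifitm3 had the highest level of the 50 genes in all 4 groups. Its mean level was 133 CPM per kilobase in OxLDL-treated R150X cells and 116 in OxLDL-treated WT cells, and 497 in untreated R150X cells and 427 in untreated WT cells. With OxLDL it was followed by Lgals3bp at 113 and 106, Bst2 at 82.1 and 71.0 and Trim25 at 36.6 and 32.4 CPM per kilobase in R150X and WT cells. Without OxLDL the order was Ifitm3, Bst2 at 306 and 259, Lgals3bp at 259 and 249, and Isg15 at 116 and 114 CPM per kilobase in R150X and WT cells. Trim25 thus held rank 4 with OxLDL while its own level showed no called change.

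The genes of the interferon pathway around these effectors were counted as a list. The ligands were scarcely detected: 10 interferon genes, Ifnb1 among them, held 24 counts in all over the 12 libraries, 6 of them at 0 in every library, and none passed the filter on low counts. Of 9 receptors and kinases, 2 rose and 3 fell with OxLDL in R150X cells and 2 rose and 4 fell in WT cells. The kinase Jak2 had a log2 fold change of -0.93 in R150X cells and -0.87 in WT cells, and the type II receptor chain Ifngr1 of 0.49 and 0.64. Of 10 IRF and STAT factors, 1 rose and 6 fell in R150X cells and 4 rose and 6 fell in WT cells. Irf7, the factor that amplifies type I interferon production, stood at 6.59, 7.27 and 6.21 CPM in OxLDL-treated R150X libraries, against 156, 145 and 147 CPM in untreated ones, a log2 fold change of -4.48. In WT libraries Irf7 stood at 6.33, 4.70 and 4.80 CPM with OxLDL, against 161, 156 and 169 CPM without it, a log2 fold change of -4.93. Stat2, a signal carrier of the type I receptor, had a log2 fold change of -2.12 in R150X cells and of -2.11 in WT cells.

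Of 12 tested genes of nucleic acid sensing upstream of the interferons, 2 rose and 6 fell in R150X cells and 1 rose and 5 fell in WT cells. The kinase Ikbke had a log2 fold change of -1.36 in R150X cells and -1.22 in WT cells, and the adaptor Myd88 of -0.58 and -0.45. Of 7 negative regulators of the pathway, 1 rose and 4 fell in each genotype, and the feedback inhibitors Socs1 and Socs3, themselves targets of cytokine signalling, had log2 fold changes of -2.33 and -1.98 in R150X cells and of -2.58 and -1.97 in WT cells. Of 14 guanylate-binding proteins and immunity-related GTPases, which respond mainly to interferon-gamma, 13 fell and 1 rose in each genotype, with a median of -3.49 in R150X cells and -3.44 in WT cells. In untreated cells 8 of these 14 were higher in R150X than in WT, Gbp2 at 0.63 among them, against 18.1% of all genes tested. With OxLDL 2 of the 14 were higher and 1 lower in R150X, and the log2 difference of Gbp2 was -0.11 (adjusted p = 0.486 by edgeR).

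Markers of other cell types were read beside these results, and their part in them was not tested. Of 7 macrophage markers, 3 rose and 4 fell with OxLDL in R150X cells and 3 rose and 2 fell in WT cells, and they summed to 19400 to 20800 CPM in OxLDL-treated R150X libraries, 23000 to 24700 in OxLDL-treated WT, 20700 to 21500 in untreated R150X and 19100 to 19400 in untreated WT libraries. Lyz2 made up most of these sums, at 13888 to 20721 CPM. The macrophage markers did not move together. Adgre1, which encodes F4/80, had a log2 fold change of -1.84 in R150X cells and of -1.71 in WT cells. Cd68 was higher with OxLDL, averaging 1285 CPM against 864 CPM without it in R150X cells, and 1241 against 717 CPM in WT cells. Of 6 markers of plasmacytoid dendritic cells, a main source of type I interferon, 5 were tested, and 1 rose and 3 fell in each genotype, one of the fallen being Bst2 itself. They summed to 381 to 405 CPM, 383 to 400 CPM, 546 to 618 CPM and 491 to 507 CPM in the 4 groups in the same order, and their defining marker Siglech stood at 0 to 0.494 CPM. Bst2, Irf8 and Tcf4 made up nearly all of these sums, and the marker that rose was Irf8. T and NK cell markers summed to 22.1 to 24.8, 21.6 to 23.0, 12.3 to 15.7 and 12.9 to 17.0 CPM, with Cd3e and Cd3d at no more than 0.183 CPM in any library, and B cell markers to at most 3.83 CPM. Most of the T and NK sum was Cd4, at 19.8 to 22.7 CPM with OxLDL and 9.60 to 12.9 CPM without it. Neutrophil markers summed to 36.8 to 38.3, 118 to 136, 189 to 205 and 416 to 441 CPM. All 7 neutrophil markers tested were lower in R150X than in WT both with and without OxLDL, while Ly6g stood at 0 to 0.539 CPM. Stromal markers summed to 4510 to 4770, 5300 to 5920, 7510 to 7540 and 11900 to 12000 CPM, and with OxLDL 4 of 6 fell in R150X cells and 3 of 6 in WT cells.

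The 50 genes lie on 15 chromosomes of GRCm38, 9 of them on chromosome 11. Ifit2, Ifit3, Ifit3b and Ifit1 follow each other on the plus strand of chromosome 19 between 34550694 and 34650009, at distances of 7.11, 19.2 and 27.5 kb, and all fell with OxLDL, none by less than the log2 fold change of -3.88 of Ifit2 in R150X cells. Rsad2 (chr12:26442746-26456452, minus strand) and Cmpk2 (chr12:26469204-26479837, plus strand) point away from each other 12.8 kb apart. Oasl2 and Oasl1 lie 11 kb apart on chromosome 5, Oas2 and Oas3 3.24 kb apart on the same chromosome, and Mx1 and Mx2 72.4 kb apart on chromosome 16. In each of these pairs both genes fell with OxLDL in both genotypes. Slfn5 and Slfn8, 37.3 kb apart on chromosome 11, both fell with OxLDL, yet with OxLDL the first was higher in R150X than in WT and the second lower. Both of these genotype calls were lost when certain single libraries were left out, as given above. Of their 50-base stretches, 11.1% for Slfn5 and 14.6% for Slfn8 also occur in other genes.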

How the data were processed

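RNA was sequenced from 12 libraries of BMDMs in 4 groups of 3. Per the labels' protocols, RNeasy Plus Mini (Qiagen) and Hieff NGS Ultima Dual-mode kits served for RNA and libraries. The authors deposited raw counts per Ensembl gene (whole numbers). The submitters' processing notes name FastQC, HISAT2, featureCounts, DESeq2, mm10 and GRCm38. The annotation release and the strand setting are items not given in the sources used here. Reads from stretches that overlapping genes share therefore cannot be told apart.

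Symbols and coordinates came from the GENCODE annotation of GRCm38, in which 54495 identifiers matched, and the other 37 held 0.00357% of all counts. Counts were filtered with edgeR's filterByExpr by group (minimum count 10, minimum total 15), scaled by TMM (factors 0.969 to 1.05), and fitted over all 12 libraries with 1 coefficient per group in edgeR version 4.0.16 under R 4.3.3. The 5 comparisons were R150X against WT in each state, OxLDL against untreated in each genotype, and their interaction. P-values were adjusted by Benjamini-Hochberg over all 15338 genes, with 0.05 as threshold, and the fit was tested on simulated data. Log2 fold changes and SE come from this fit, levels are CPM, and intervals on ratios of counts cover counting error only. Alternatives were DESeq2 version 1.42.0, other scalings, no filter, only the groups compared, a replicate block, and each library left out.

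The 50 genes, the role groups and the pathway and marker lists were chosen with earlier results of these data known. Values in every library are given for up to 6 genes per comparison and direction with the smallest adjusted p and for the most abundant genes. Isg15, Mx1, Ifi44, Bst2 in untreated cells and Trim25 with OxLDL were added after their values were seen. Replicate numbers did not mark pairs of libraries.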

Additional observations from a re-analysis of the deposited data

Results flagged for a closer look

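The OxLDL response of Ifit3 differed between genotypes by the interaction test: R150X minus WT was 1.03 on the log2 scale (SE 0.251, adjusted p = 0.0123 by edgeR), with all 3 OxLDL-treated R150X libraries (1.60 to 3.14 CPM) above all 3 OxLDL-treated WT libraries (0.904 to 1.29 CPM). It rests on 116 counts in OxLDL-treated R150X libraries and 50 counts in OxLDL-treated WT libraries. The OxLDL response of Parp14 also differed, by -0.31 for R150X minus WT (SE 0.081, adjusted p = 0.0193 by edgeR), with all 3 OxLDL-treated R150X libraries (77.8 to 79.4 CPM) below all 3 OxLDL-treated WT libraries (92.7 to 99.6 CPM). Over all genes tested, 8.32% were called by this test, and 2 of the 50 effectors were.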

How the results depend on the processing

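The falls with OxLDL kept their direction under every alternative, and every call was kept but that of Pnpt1 in R150X cells: with each library left out, 48 genes fell in WT cells and 48 to 49 in R150X cells, and scaling by library size alone called 49 in WT cells, adding Pnpt1 (adjusted p = 0.0259 by edgeR). Scaling by library size alone changed the comparison of untreated genotypes, with 5 genes higher and 7 lower in place of 11 and 4, and it called 0 lower responses in the interaction in place of 1. Under that scaling the share of higher genes among all genes called was 36.1% in place of 55% for untreated genotypes, 31.6% in place of 49.6% for OxLDL in WT cells and 66.5% in place of 37.6% for the interaction, and the median of all genes for OxLDL in WT cells was -0.10 in place of 0.01. Besides Trim25 and Samhd1, it removed the untreated calls of Bst2 (adjusted p = 0.0639 by edgeR), Ifitm3 (0.0798), Rsad2 (0.185) and Ifi35 (0.146), and the OxLDL call of Ifih1 (0.0621). The cause was not tested. With only the groups compared in the fit, 2 genes in place of 4 were lower in OxLDL-treated R150X cells, where fewer libraries enter the fit, and Ifit2 and Rsad2 were no longer called. DESeq2 and the fit without a filter also lost Ifit2 and Ifih1 with OxLDL and Ifi35 without it.

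With each library left out, 8 to 12 genes were higher and 1 to 5 lower in untreated R150X cells, 3 to 9 higher and 1 to 4 lower in OxLDL-treated R150X cells, and 0 to 1 responses each were higher and lower in the interaction. No called log2 fold change that was recomputed turned its sign. Replicate numbers in the labels were checked as pairs: deviations of same-numbered libraries correlated at -0.04 to 0.16, not all over 0.1, so they were not treated as pairs. A replicate block gave 11 higher and 4 lower genes without OxLDL and 8 and 4 with it, 48 and 49 falls with OxLDL in WT and R150X cells, and 1 higher and 1 lower response in the interaction. Depth limits Ifit3b and Ifi44 with OxLDL, where 10 to 26 counts per group were seen.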
